A study of Mus musculus with 6 samples.

Results

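The mouse mitochondrial genome accounts for 37 of the 54532 genes in the deposited expression table, taken here as every row whose gene name starts with mt-. They are 13 protein-coding genes, 2 rRNA genes and 22 tRNA genes. Their RNA levels were compared between CD8 T cells with the PTPMT1 KO genotype (KO, n = 3 libraries) and CD8 T cells with the WT genotype (WT, n = 3). Ptpmt1 encodes a phosphatase of mitochondria that acts in the synthesis of cardiolipin, a lipid of their inner membrane. In both groups the cells had been purified from mouse spleen and lymph nodes and kept for 3 days in culture with Dynabeads coated with CD3 and CD28 antibodies, a substitute for antigen and costimulation. The sources used here do not give the strain, age or sex of the mice, the exons removed or any Cre driver. Nor do they say that each library came from its own animal, so a p-value here covers library-to-library spread that may be in part technical.

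Mitochondrial DNA is transcribed from both strands into long RNAs that run through many genes. The tRNAs lie between the rRNA and coding genes, and cutting them out at both ends releases the mature RNAs. The coding genes supply subunits of respiratory complexes I, III and IV and of the ATP synthase, while the rRNAs and tRNAs serve the mitochondrion's own ribosome. Copies of mitochondrial DNA also lie in the nuclear chromosomes, and reads from a mitochondrial transcript can match such a copy as well.

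Whole reads per gene, rebuilt from the deposited FPKM (fragments corrected for the length of the gene and by a divisor for each library), summed to between 14932604 and 16819913 per library. That divisor was not the plain sum of reads. It was 0.780 times the rebuilt reads in KO replicate 2, the lowest of the 6 libraries, and 1.10 times in KO replicate 3, the highest. Ptpmt1 had 1.36 ± 0.314 FPKM in KO and 3.90 ± 0.199 FPKM in WT (SD, n = 3 each; log2 fold change -1.26, SE 0.198, limma adjusted p = 0.0884). KO replicate 3 stood apart, with 0 reads of Xist, an RNA of the inactive X chromosome, and 1837 reads of the Y-linked Ddx3y, whereas each of the other 5 libraries had Xist reads and 0 reads of Ddx3y. Its reads were thus of a male pattern and those of the other 5 of a female one, so the KO libraries did not all come from 1 animal. The 8 markers of CD8 T cells were detected in all 6 libraries, with summed levels of 1596 to 2227 FPKM in KO and 1684 to 1947 FPKM in WT. The overlap of these sums hides members that ran in opposite ways. Gzmb, the cytotoxic protease granzyme B, had 626 to 761.5 FPKM in KO and 194 to 349 FPKM in WT, while Cd8a (109 to 145 FPKM in KO, 182 to 219 FPKM in WT), Trac, Cd3e and Prf1 were lower in each KO library, and the other 3 markers overlapped. The 6 markers of gamma-delta T cells summed to 174 FPKM in KO replicate 3 and to 26.4 to 64.3 FPKM in the other 5 libraries, and the 7 markers of neutrophils and mast cells to 83.2 FPKM and to 6.83 to 19.6 FPKM. Most of that 83.2 FPKM was Mcpt8 (43.3 FPKM) and Cpa3 (25.9 FPKM). Both, with Gata2, Mpo and Elane, were highest in KO replicate 3. The neutrophil genes S100a8 and S100a9, with 1.76 and 0.637 FPKM there, were not. Summed markers of CD4 T cells, B cells, NK cells, myeloid cells and the erythroid and platelet lineages overlapped between the groups, the B cell markers at 258 to 332 FPKM in KO and 318 to 408 FPKM in WT. Most of the CD4 T cell sum was Ctla4 and most of the B cell sum Ighm. Single members did separate, with Cd4, the B cell marker Cd79b and the myeloid marker Cd68 lower in each KO library, and Zbtb7b of the CD4 list higher. For the gamma-delta T cell list and the neutrophil and mast cell list, 4 of 6 and 5 of 7 markers were detected in every library and none was at 0 in all 6. Several results below are given with and without KO replicate 3, and the part played by cell composition was not tested.

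Among the mitochondrially encoded genes, the total amount of RNA did not separate the KO from the WT libraries. Of the genes that did, 2 patterns are set out first. First, mt-Nd3 and the tRNA genes on both sides of it, mt-Tg and mt-Tr, were counted far more often in each KO library than in any WT library. Second, the small rRNA mt-Rnr1 was higher in each KO library (limma adjusted p = 0.151), also relative to mt-Cytb or mt-Co1 in the same library. By the same ratios mt-Nd4 was lower relative to both. The tRNA genes mt-Tv, mt-Tl1, mt-Tq and mt-Ta, away from mt-Nd3, were also higher in each KO library. Of the 37 genes, 33 reached a mean of 0.5 FPKM over the 6 libraries and were tested, but 4 of them (mt-Tg, mt-Tr, mt-Tv and mt-Tm) did so through KO libraries alone. Only mt-Tg passed an adjusted p of 0.05 in limma, in a comparison in which 0.0395% of the 12654 genes tested passed, and 0.0237% passed as higher in KO. Those 4 could only come out higher, so the counts that follow leave them out and cover the 29 genes that averaged at least 0.5 FPKM in each group, set beside the 11933 genes of the whole table that did so, a restriction chosen after the values were seen. Of these 29, 6 were higher at an unadjusted p under 0.05 (11.6% of the 11933) and 0 were lower (10%). The KO and WT libraries did not overlap in FPKM for 5 of the 29, all higher in KO (14.6% of the 11933), and 0 lay wholly below WT (12.9%). With 5 of 29, the count without overlap is near the share over all genes, and mt-Rnr1 and mt-Nd3 are among those 5. The mitochondrial genes of 1 library share that library's mitochondrial level, so these counts are not counts of separate events.

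The total mitochondrial share of rebuilt reads was 4.40%, 7.53% and 2.38% in KO replicates 1 to 3, against 4.76%, 4.21% and 3.38% in WT replicates 1 to 3. The highest and the lowest of the 6 shares were both in KO libraries, so the groups overlapped. Their means were 4.77% ± 2.59 in KO and 4.12% ± 0.695 in WT (SD, n = 3 each). Leaving out 1 library at a time moved the difference of KO minus WT between -0.73 and 1.84 percentage points, the lowest without KO replicate 2 and the highest without KO replicate 3.

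The coding genes followed that spread. KO replicate 2 had the highest FPKM for 12 of the 13 coding genes and KO replicate 3 the lowest for 12 of 13, and the FPKM in KO replicate 2 was 3.46 to 9.24 times that in KO replicate 3. Between WT libraries the highest FPKM was 1.12 to 3.11 times the lowest. The median log2 fold change of the 13 genes was 0.17, with 9 genes above 0 and 0 called, beside a median of 0.03 over all genes tested. Without KO replicate 2 the median was -0.50, and without KO replicate 3 it was 0.78. When each library was rescaled to the same total, the median was -0.10 and that over all genes -0.22.

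**Figure D1:**
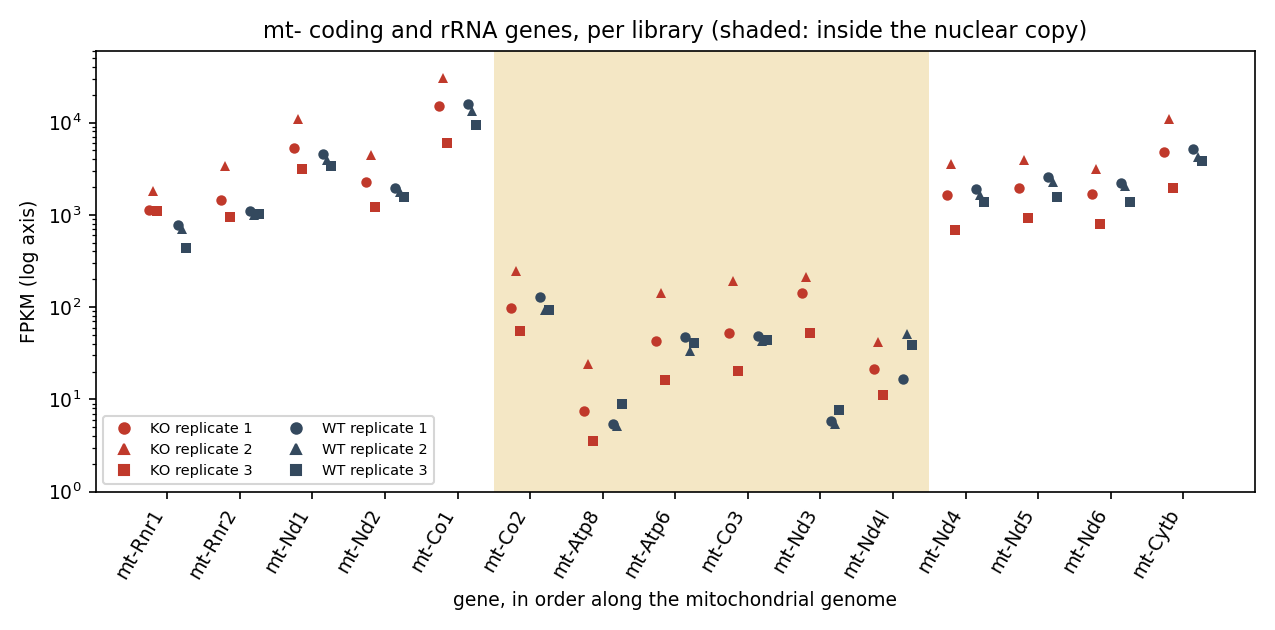
FPKM (log axis) of the 13 coding and 2 rRNA genes in gene order, each symbol being 1 library (KO red and on the left, WT dark blue and on the right). Shading marks genes wholly inside the segment copied on chromosome 1, which lie between 3.53 and 246 FPKM, and the KO and WT symbols separate for mt-Nd3 and mt-Rnr1.

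Among the coding genes the widest separation was that of mt-Nd3, which encodes a core membrane subunit of complex I (ENSMUSG00000064360, mm10 chromosome M, 9459 to 9806, plus strand). It had 142, 212 and 52.5 FPKM in KO replicates 1 to 3, against 5.79, 5.43 and 7.69 FPKM in WT replicates 1 to 3. The lowest KO library was well above the highest WT library, and KO replicate 3 was the lowest of the KO group, as it was for most coding genes. Its log2 fold change of 4.12 (SE 0.483, limma adjusted p = 0.0757) fell short of the threshold. Without KO replicate 3 it passed (4.69, limma adjusted p = 0.00333).

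Set against the other 12 coding genes of the same library, the spread among the KO libraries narrowed. The log2 of mt-Nd3 FPKM over their geometric mean was -1.77, -2.43 and -2.09 in KO replicates 1 to 3, against -6.41, -6.42 and -5.78 in WT replicates 1 to 3. The means were -2.10 ± 0.330 in KO and -6.21 ± 0.366 in WT (SD, n = 3 each), a difference of 4.11. By exact permutation (2-sided) p was 0.1, and 3 against 3 libraries can give none smaller. The ratio was chosen with earlier results of these data known, so this p adds no independent support. Leaving out each library in turn kept the difference between 3.94 and 4.32, where only its size could move, as the groups did not overlap.

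The annotation places a nearly identical copy of mt-Nd3 on chromosome 1, the unprocessed pseudogene Gm28438 (ENSMUSG00000101939, mm10 chromosome 1, 24612775 to 24613119, minus strand). Over the 345 bases they share, the GENCODE M21 transcripts of mt-Nd3 and Gm28438 differ at 1 base, T3C, with the mt-Nd3 base first and positions counted from 1 at the start of the gene, so that the base lies within the first codon. The opening 60 bases of each are shown because they hold that base, which is in capitals.
mt-Nd3: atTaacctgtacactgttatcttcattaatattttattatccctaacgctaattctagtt
Gm28438: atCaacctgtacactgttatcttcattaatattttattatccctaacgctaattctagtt
A read that lies within the other shared bases matches both places equally, and the last 3 bases of mt-Nd3 lie outside the comparison. The first stretch corresponds to chrM:9459-9518 and the second to chr1:24613060-24613119 on the minus strand. Which base each group's mitochondrial DNA carries cannot be read from expression values and was not analysed here.

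Reads counted on Gm28438 ran the other way. It had 221, 90 and 33 reads in KO replicates 1 to 3, against 561, 581 and 644 reads in WT replicates 1 to 3, with no overlap. In FPKM the means were 22.0 ± 17.8 in KO and 105 ± 5.28 in WT (SD, n = 3 each; log2 fold change -2.64, SE 0.642, limma adjusted p = 0.110), short of the threshold. The reads on mt-Nd3 itself were 779, 969 and 330 in KO, against 33, 29 and 47 in WT.

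Of the reads counted on either gene of this pair, 77.9%, 91.5% and 90.9% were assigned to mt-Nd3 in KO replicates 1 to 3, against 5.56%, 4.75% and 6.80% in WT replicates 1 to 3. The Wilson 95% intervals were 75.2% to 80.4% for the lowest KO library and 5.15% to 8.93% for the highest WT library, covering counting error only. The exact 2-sided permutation test of this share gave p = 0.1, the smallest possible, and the share was chosen for study after the values were seen. The sum of both genes was 1000, 1059 and 363 reads in KO, against 594, 610 and 691 reads in WT. Those sums overlapped between the groups, and expressed as RPM, reads scaled to the deposited library totals, they averaged 54.8 ± 31.2 in KO and 38.5 ± 1.89 in WT (SD, n = 3 each; exact 2-sided permutation p = 0.4). The KO and WT libraries thus separated in which gene of the pair was counted, while the pair's totals overlapped. The mean share was 81.1 percentage points higher in KO, and 78.7 to 85.5 points higher with each library left out in turn.

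Gm28438 belongs to a run of 7 annotated copies on the minus strand of chromosome 1, from 24611535 to 24616197 in mm10. Their transcripts match coding stretches of the mitochondrial genome, the first match starting at 6390 and the last ending at 11042, with 99.7% to 100% identity. Of the 37 mitochondrial genes, 11 lie wholly between those ends, 2 (mt-Co1 and mt-Nd4) partly, and 24 outside, and the stretch between the ends is called the copied segment here. No annotated transcript covers the gaps between the matches, which hold the tRNA genes and most of mt-Atp8, so the copies of these were not compared. Levels in FPKM differed by place. The 6 coding genes inside had 3.53 to 246 FPKM over all 6 libraries, the 2 that reach beyond it 685 to 30647 FPKM, and the 5 outside 790.4 to 10893 FPKM. The sources used here do not say how reads with several matches were counted, and their part in these levels was not tested.

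The other whole-gene pairs in that run did not show the separation of mt-Nd3. For mt-Co2 and Gm28661, mt-Atp6 and Gm10925, and mt-Nd4l and Gm10222, the share of the pair's reads on the mitochondrial gene overlapped between the groups. The exception was mt-Co3, a subunit of complex IV, with its copy Gm28437. All 4 of these pairs are identical over the bases they share. Its share was 58.4%, 74.0% and 69.7% in KO replicates 1 to 3, against 49.2%, 50.4% and 49.2% in WT replicates 1 to 3 (exact 2-sided permutation p = 0.1, the smallest possible). Those groups did not overlap, though mt-Co3 and Gm28437 each did so in FPKM. In the genome mt-Co3 ends next to mt-Tg, which ends next to mt-Nd3. For mt-Co1 and mt-Nd4, which are copied only in part, 99.4% to 99.9% of the reads of the pair were on the mitochondrial gene.

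**Figure D2:**
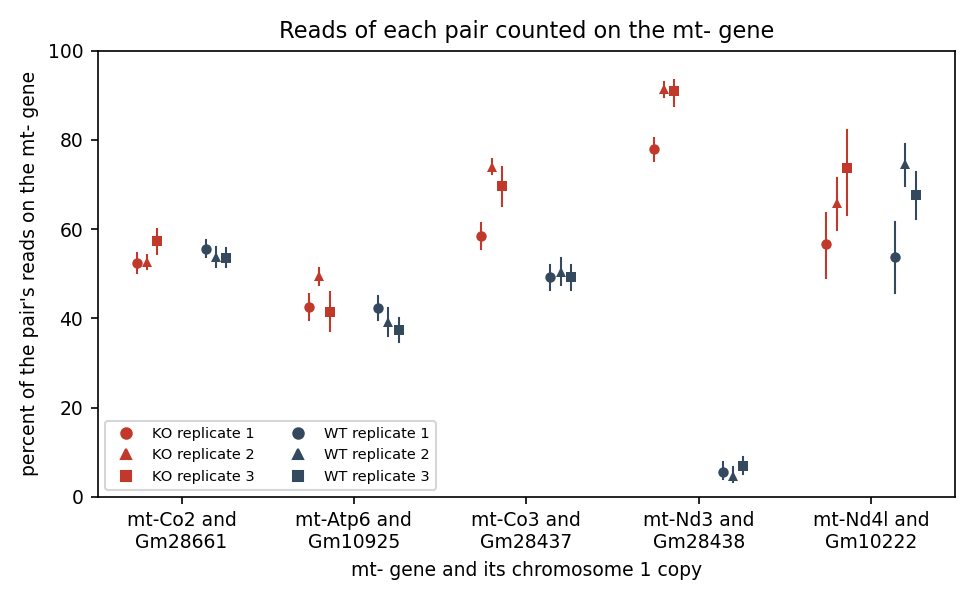
Percent of the reads of each pair that were counted on the mitochondrial gene (y axis), for the 5 genes copied whole on chromosome 1; symbols are libraries, KO left and WT right, and lines are Wilson 95% intervals. For mt-Nd3 the KO libraries sit between 77.9% and 91.5% and the WT libraries between 4.75% and 6.80%, and among the other pairs only mt-Co3 has no overlap.

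The tRNA genes on both sides of mt-Nd3 showed the same order of the groups. The glycine tRNA gene mt-Tg (chrM, 9391 to 9458) directly precedes mt-Nd3, and the arginine tRNA gene mt-Tr (9808 to 9875) lies between mt-Nd3 and mt-Nd4l, which encodes another subunit of complex I. Both lie inside the copied segment. They are shown whole, as DNA in the direction of the RNA, with the anticodon in capitals.
mt-Tg: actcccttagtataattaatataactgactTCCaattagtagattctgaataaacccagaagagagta
mt-Tr: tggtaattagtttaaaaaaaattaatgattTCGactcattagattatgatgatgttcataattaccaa
In the mitochondrial annotation, mt-Nd4l starts 418 bases after the start of mt-Nd3, against 419 bases for the copies on chromosome 1, so the stretch that holds mt-Tr differs in length by 1 base between the 2 places.

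For mt-Tg, 55, 97 and 24 reads were counted in KO replicates 1 to 3, against 0 reads in each WT library. Against a floor of 3 reads over the WT group, with the KO reads taken as counted, it was 61.6-fold higher in KO. That value covers neither counting error of the KO reads nor spread between libraries. The limma adjusted p was 0.0216, for a gene that entered the test through its KO libraries alone and so could only come out higher. That call was kept in 8 of 15 alternative fits, with adjusted p between 0.000568 and 0.226, and was lost without KO replicate 1 and without each WT library in turn. For mt-Tr, 8, 16 and 9 reads were counted in KO, against 0, 1 and 0 in WT, a ratio of 34.7 with an exact Poisson 95% interval of 5.80 to 1410 that covers counting error only (limma adjusted p = 0.0862). All KO libraries were above all WT libraries for both genes. The 3 other tRNA genes inside the segment, mt-Ts1, mt-Td and mt-Tk, had 0 or 1 read in each library and were not tested, as was mt-Tf outside it, with 0 reads.

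Outside the copied segment, 4 of 17 tRNA genes had KO libraries that were all above the WT libraries, and limma called 0 of the 4. Of the 11933 genes averaging at least 0.5 FPKM in each group, 14.6% did so. The 17 are not a like set. Among them, mt-Tv and mt-Tm were tested through their KO libraries alone and could only come out higher, and mt-Tf had 0 reads. The 4 genes are those for valine (mt-Tv), leucine (mt-Tl1), glutamine (mt-Tq) and alanine (mt-Ta). The large rRNA gene lies between mt-Tv and mt-Tl1, while mt-Tq and mt-Ta lie on either side of mt-Nd2, on the opposite strand. Their sequences are given for comparison, with anticodons in capitals.
mt-Tv: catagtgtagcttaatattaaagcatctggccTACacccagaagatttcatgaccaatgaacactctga
mt-Tl1: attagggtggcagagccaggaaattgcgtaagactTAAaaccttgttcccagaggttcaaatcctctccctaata
mt-Tq: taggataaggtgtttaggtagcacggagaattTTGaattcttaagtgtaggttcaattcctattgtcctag
mt-Ta: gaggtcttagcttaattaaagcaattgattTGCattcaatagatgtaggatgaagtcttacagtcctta
The gene mt-Tl1 had 267, 438 and 168 reads in KO replicates 1 to 3, against 141, 113 and 122 reads in WT replicates 1 to 3 (log2 fold change of FPKM 1.19, SE 0.437, limma adjusted p = 0.184), and it passed without KO replicate 3 (1.64). The counts of the other 3 were low. For mt-Ta there were 28, 53 and 19 reads in KO, against 13, 1 and 5 in WT (log2 fold change 2.75, SE 0.801, limma adjusted p = 0.134).

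Reads of mt-Tq numbered 12, 11 and 12 in KO, against 4, 0 and 5 in WT (log2 fold change 2.42, SE 0.793, limma adjusted p = 0.157). It overlaps by 3 bases with mt-Ti, the isoleucine tRNA gene on the opposite strand, with 29, 33 and 16 reads in KO against 4, 3 and 19 in WT. Reads of mt-Tv numbered 2, 12 and 3 in KO, against 0 in each WT library (limma adjusted p = 0.0954). With the KO reads taken as counted, that was 5.95-fold higher against the same floor. Thus all KO libraries exceeded all WT libraries for mt-Tq and mt-Tv, and mt-Ti overlapped through WT replicate 3. The sources used here do not give the strand setting of the counting, so reads where genes overlap on opposite strands are uncertain.

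The other tRNA genes overlapped between the groups. The methionine tRNA gene mt-Tm had 5, 15 and 0 reads in KO, against 0, 1 and 0 in WT, and thus no reads in KO replicate 3. The most counted, the proline tRNA gene mt-Tp, had 1318, 2187 and 669 reads in KO, against 1550, 1211 and 1178 in WT, with the KO libraries on both sides of the WT libraries. The tRNA genes together took 0.456%, 0.454% and 0.497% of mitochondrial reads in KO, against 0.427%, 0.443% and 0.497% in WT. The libraries were made with a kit for mRNA, so reads on tRNA genes cannot be told apart from reads on uncut transcripts that run through them.

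**Figure D3:**
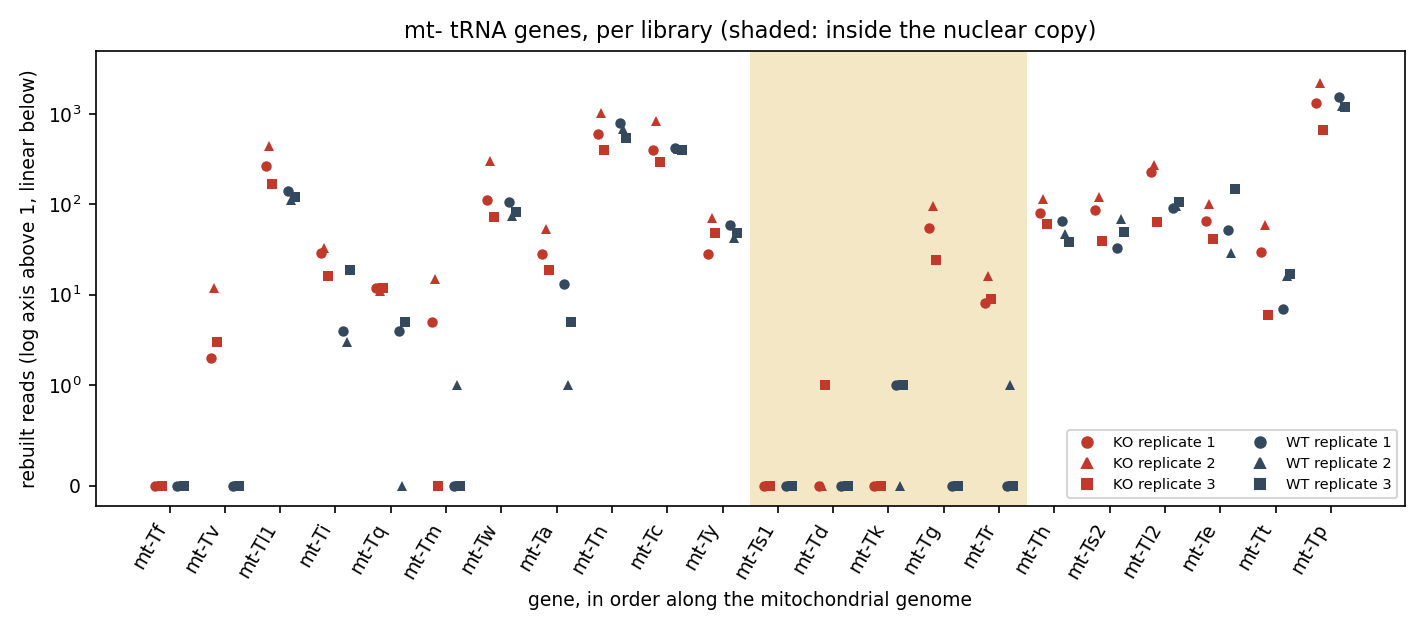
Rebuilt reads per library (y axis, logarithmic above 1 and linear below) of the 22 tRNA genes in gene order, KO left and WT right; shading marks genes inside the segment copied on chromosome 1. For mt-Tg the KO libraries have 24 to 97 reads and the WT libraries 0, while mt-Tp, the gene with the most reads, has overlapping groups.

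The 2 rRNA genes encode the RNAs of the small (mt-Rnr1, chrM, 70 to 1024) and large (mt-Rnr2, 1094 to 2675) subunits of the mitochondrial ribosome. In FPKM, mt-Rnr1 had 1129.5, 1826 and 1092 in KO replicates 1 to 3, against 783, 701 and 437 in WT replicates 1 to 3. All 3 KO libraries were above the WT libraries, and KO replicate 3, lowest of all for most coding genes, was close to KO replicate 1 here. Its log2 fold change of 1.08 (SE 0.339, limma adjusted p = 0.151) fell short of the threshold. For mt-Rnr2 the FPKM was 1455, 3339 and 954 in KO, against 1112, 991 and 1014 in WT (log2 fold change 0.68, SE 0.462, limma adjusted p = 0.422), and the groups overlapped through KO replicate 3. Both rRNAs together took 7.23%, 7.28% and 11.8% of mitochondrial reads in KO, against 5.24%, 5.46% and 6.41% in WT, with no overlap.

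The composition of mitochondrial RNA was also compared within each library, as the FPKM of each other coding or rRNA gene over that of mt-Cytb, the complex III subunit, and then over that of mt-Co1, the core subunit of complex IV. Both denominators were chosen after values had been seen, and neither ratio depends on the library's scaling. Of 14 genes set against mt-Cytb, 4 were higher in all KO than in all WT libraries (mt-Rnr1, mt-Rnr2, mt-Nd1 and mt-Nd3) and 1 lower (mt-Nd4), where 2.97% and 2.69% of all genes tested did so. Of 14 set against mt-Co1, 2 were higher (mt-Rnr1 and mt-Nd3) and 3 lower (mt-Nd4, mt-Nd5 and mt-Nd6), where 1.85% and 3.53% of all genes tested did so. These shares come mostly from nuclear genes, which take on the denominator's spread between libraries when divided by it. Mitochondrial genes share much of that spread, so the shares are not a like benchmark for them. Without a denominator, 14.5% of all genes tested were wholly higher and 13.3% wholly lower. Thus mt-Rnr2 and mt-Nd1 separated only with mt-Cytb, and mt-Nd5 and mt-Nd6 only with mt-Co1.

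The ratio of mt-Rnr1 to mt-Cytb was 0.233, 0.168 and 0.553 in KO replicates 1 to 3, against 0.152, 0.164 and 0.115 in WT replicates 1 to 3. KO replicate 3 was the highest and KO replicate 2 only just above the WT libraries. The log2 ratio, here the KO mean of the log2 values minus their WT mean, was 0.97, and it was 0.48 without KO replicate 3. With mt-Co1 as the denominator these were 0.90 and 0.43.

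For mt-Nd1, a complex I subunit encoded next after the rRNA genes, the ratio to mt-Cytb was 1.09, 0.999 and 1.59 in KO, against 0.896, 0.922 and 0.892 in WT. Here too KO replicate 3 was the highest, and the log2 ratio of 0.41 was 0.21 without it. For mt-Rnr2 the log2 ratio was 0.58, and 0.36 without KO replicate 3. The spread of these ratios among the KO libraries was therefore wide. As the groups did not overlap, the direction could not turn with a KO library left out, so that is no check on it.

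The complex I subunit gene mt-Nd4 had ratios to mt-Cytb of 0.335, 0.323 and 0.347 in KO, against 0.371, 0.383 and 0.361 in WT. The KO libraries lay close together, just under the lowest WT library, and the log2 ratio was -0.15. With mt-Co1 it was -0.22, beside -0.28 for mt-Nd5 and -0.37 for mt-Nd6, the only coding gene on the minus strand. With 1 KO library left out at a time, the log2 ratio of mt-Nd4 to mt-Co1 ran from -0.23 to -0.19. For mt-Nd5 it ran from -0.36 to -0.24, and for mt-Nd6 from -0.46 to -0.29. Groups without overlap keep their order whichever library is left out, so only these sizes could move. The exact 2-sided permutation p of each ratio without overlap was 0.1, the smallest possible.

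**Figure D4:**
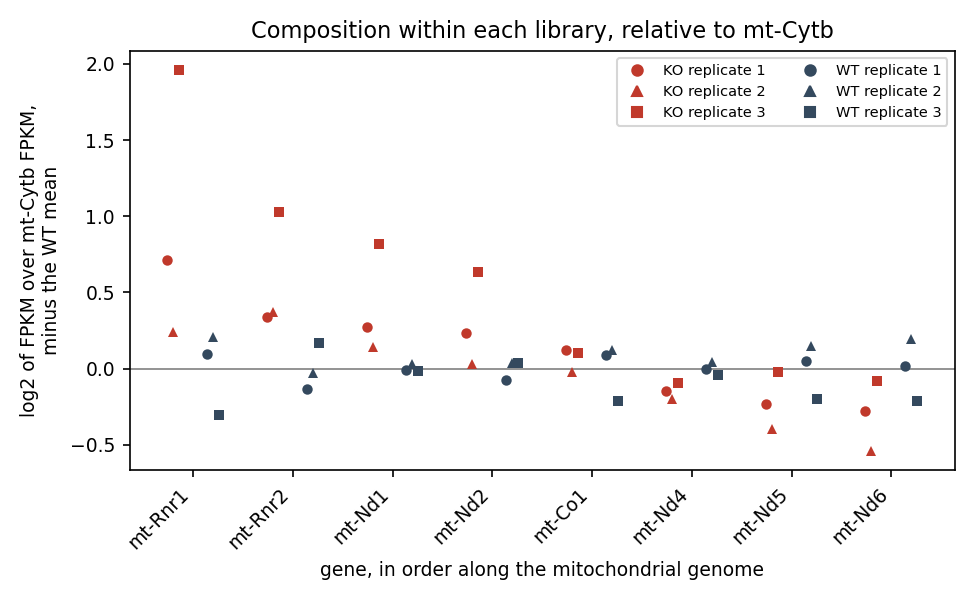
Log2 of the FPKM of each gene over that of mt-Cytb in the same library, minus the WT mean (y axis), for the 8 coding and rRNA genes that are not wholly inside the copied segment; symbols are libraries, KO left and WT right. The KO libraries lie above WT for mt-Rnr1, mt-Rnr2 and mt-Nd1 and below for mt-Nd4, with KO replicate 3 uppermost for the rRNA genes, and mt-Rnr2 and mt-Nd1 do not separate when mt-Co1 is the denominator.

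The remaining coding genes had wide limits. The largest of these by level, mt-Co1, had 15062, 30647 and 6059.9 FPKM in KO, against 15688, 13256 and 9399 FPKM in WT, so KO libraries lay both above and below the WT libraries. It alone took 49.8%, 49.1% and 43.2% of mitochondrial reads in KO, against 50.6%, 50.0% and 46.0% in WT. For mt-Cytb the FPKM was 4848, 10893 and 1975 in KO, against 5153, 4268 and 3806 in WT, again with KO libraries at both ends. Apart from mt-Nd3, log2 fold changes of the coding genes ran from -0.57 (mt-Nd4l) to 0.52 (mt-Nd1) with standard errors of 0.481 to 0.712, so changes of that size were not detectable with these libraries. Both subunits of the ATP synthase encoded here, mt-Atp6 and mt-Atp8, lie inside the copied segment and overlap each other by 43 bases.

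Nuclear genes that make, process and use these RNAs were described by list, and 0 members of any list were called. At an unadjusted p under 0.05, 11.5% of all genes tested were higher and 10.2% lower, and the counts below are to be read beside those shares. For transcription of mitochondrial DNA, 2 of 10 genes were higher (20%) and 0 lower. The median log2 fold change of the 10 was 0.32, beside 0.03 over all genes tested. Leaving out KO replicate 2 gave 0.18, and leaving out KO replicate 3 gave 0.61. Rescaling to the same total lowered the list's median to 0.05, but that over all genes fell as well, to -0.22. Tefm, the elongation factor, had 12.01 ± 4.86 FPKM in KO and 5.09 ± 0.608 FPKM in WT (SD, n = 3 each; limma adjusted p = 0.125). Tfam, which packages and helps transcribe mitochondrial DNA, had 24.7 ± 4.41 FPKM in KO and 19.7 ± 0.771 FPKM in WT, and Tfb2m, a transcription factor of the same machinery, had 13.05 ± 3.43 and 10.1 ± 1.47 FPKM in KO and WT.

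Among 20 measured genes of RNA processing and decay, 8 were higher at that threshold (40%) and 0 lower, with a median log2 fold change of 0.48. Rexo2, a nuclease that degrades short RNA, had 34.2, 34.8 and 32.5 FPKM in KO, against 17.3, 17.1 and 23.9 FPKM in WT (log2 fold change 0.80, SE 0.179, limma adjusted p = 0.105). Hsd17b10, a subunit of the mitochondrial RNase P that cuts the 5′ ends of tRNAs, had 47.7 ± 2.78 FPKM in KO and 34.1 ± 2.52 FPKM in WT (SD, n = 3 each; limma adjusted p = 0.149). The pentatricopeptide protein gene Ptcd2 had 32.7 ± 3.41 FPKM in KO and 24.9 ± 1.91 FPKM in WT (limma adjusted p = 0.214). For Rexo2, Hsd17b10 and Ptcd2 the groups did not overlap. The list's median was 0.45 when KO replicate 2 was left out and 0.47 when KO replicate 3 was. Rescaled to the same total it was 0.28, beside -0.22 over all genes.

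Of 15 genes of tRNA and rRNA modification, an unadjusted p under 0.05 was found for 4 that were higher (26.7%, against 11.5% of all genes tested) and 1 that was lower. Their median log2 fold change was 0.24, and 0.03 when rescaled to the same total (all genes -0.22). Mrm3, a methyltransferase of the large mitochondrial rRNA, had 8.83, 10.5 and 8.05 FPKM in KO, against 3.79, 3.74 and 4.83 FPKM in WT (log2 fold change 1.06, SE 0.177, limma adjusted p = 0.0884). Cdk5rap1, which modifies mitochondrial tRNAs, was the lower one, with 4.44 ± 1.20 FPKM in KO and 10.3 ± 3.71 FPKM in WT (SD, n = 3 each; limma adjusted p = 0.124). Trnt1, which adds the terminal CCA to tRNAs, had 26.2 ± 5.84 FPKM in KO and 17.1 ± 0.812 FPKM in WT, and the pseudouridine synthase gene Pus1 had 17.3 ± 2.55 FPKM in KO and 10.8 ± 1.73 FPKM in WT.

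Of the 22 genes for charging mitochondrial tRNAs, 6 were higher with an unadjusted p under 0.05 (27.3%, against 11.5% of all genes tested) and 1 was lower. Their median log2 fold change was 0.28, and 0.02 when rescaled to the same total (all genes -0.22). Gars, the glycyl-tRNA synthetase of both cytosol and mitochondria and so the enzyme that charges the product of mt-Tg, had 81.0, 67.9 and 101 FPKM in KO, against 38.4, 39.6 and 49.3 FPKM in WT (log2 fold change 0.95, SE 0.206, limma adjusted p = 0.09997). The groups did not overlap, and KO replicate 3 was the highest. Yars2, the mitochondrial tyrosyl-tRNA synthetase, had 15.3 ± 4.80 FPKM in KO and 7.34 ± 1.72 FPKM in WT (SD, n = 3 each; limma adjusted p = 0.124). Kars, the lysyl enzyme of both compartments, had 56.0 ± 9.65 FPKM in KO and 47.5 ± 4.30 FPKM in WT, with overlap.

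The nuclear partners of the coding genes were higher at an unadjusted p under 0.05 for 6 of 36 subunits of complex I (16.7%) and 4 of 34 of complexes III and IV and the ATP synthase (11.8%), with 0 lower. The second share is practically that of all genes tested, 11.5%. Their median log2 fold changes were 0.43 and 0.41, and 0.16 and 0.13 when rescaled to the same total (all genes -0.22). Both medians moved in the same direction as that of the mitochondrial coding genes, to 0.23 and 0.18 without KO replicate 2 and to 0.71 and 0.78 without KO replicate 3. They stayed above 0, whereas the median of the mitochondrial coding genes was -0.50 without KO replicate 2. Ndufa12, a complex I subunit, had 80.0, 44.2 and 39.4 FPKM in KO, against 20.4, 23.4 and 14.9 FPKM in WT (log2 fold change 1.41, SE 0.308, limma adjusted p = 0.102). Atp5g1, which encodes the c subunit of the ATP synthase ring, had 22.8 ± 3.63 FPKM in KO and 11.3 ± 3.86 FPKM in WT (SD, n = 3 each; limma adjusted p = 0.113). The most abundant of these subunit genes overlapped between groups, with Ndufa2 at 342 ± 242 FPKM in KO and 151 ± 10.9 FPKM in WT, Ndufb11 at 260.4 ± 161 and 174 ± 15.3 FPKM, Cox8a at 860.4 ± 399 and 603 ± 55.8 FPKM, and Uqcr10 at 521 ± 340.2 and 237 ± 45.9 FPKM.

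Among RNAs without poly(A) tails, which an mRNA kit should largely leave out, Rn7sk had 22.8 ± 1.59 FPKM in KO and 5.69 ± 0.389 FPKM in WT (SD, n = 3 each; limma adjusted p = 0.0143). The 12 histone genes of that kind summed to 170.0, 244 and 77.1 FPKM in KO replicates 1 to 3, against 109, 93.8 and 173 FPKM in WT replicates 1 to 3. The histone sums thus overlapped between the groups while Rn7sk did not, and the part of such carryover in the rRNA and tRNA values was not tested.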

How the data were processed

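The deposited table gives 1 FPKM value per gene and library, with a gene length column of another kind. The tools named, per the submitters' processing notes and with no role stated, are featureCounts 1.5.0-p3, HISAT2 2.0.5, DESeq2 and Trim Galore, and the build is mm10. Per the labels' protocols, libraries came from a stranded mRNA kit. Strand setting and annotation release: not given in the sources used here. The KO columns carry the gene's name and a replicate number. Whole reads were rebuilt from the deposited FPKM: multiplied by gene length, 99.99% or more of each column's values were whole multiples of 1 step (tolerance 0.05).

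Log2(FPKM + 0.5) of the 12654 genes averaging 0.5 FPKM or more was fitted with limma 3.58.1 in R 4.3.3 (trend, 2-sided, genotype only), with Benjamini-Hochberg adjustment over all of them. Fold changes on this scale understate changes of low genes. The fit was run on simulated data with the same small spread for every gene and no deviating library. That run does not cover a spread as wide as that of these KO libraries. With no genome to search, mt- transcripts of GENCODE M21 (mm10, also the source of sequences and coordinates) were compared with its nuclear transcripts by BLAST 2.17.0 (at least 90% identity over 100 bases), a step chosen after values were seen. It matched 7 of 9 copies listed by name, and 8 matched genes had at least 100 reads, the eighth being Gm13340 on chromosome 2, a copy of mt-Co1 with 37 mismatches. Members and lists were chosen with earlier results of these data known. Of each list, the 2 genes of highest mean FPKM and those with an unadjusted p under 0.01 are named. Same-numbered KO and WT libraries deviated together with r of 0.13, 0.07 and 0.33, so the numbers were not taken as pairs. Alternatives covered pseudocount, filter, scaling, limma-voom on rebuilt reads, a replicate block and each library left out. The deposited divisor was 0.963 to 0.981 of the total by median-of-ratios size factors, so that scaling was close to the deposited one. Tables and plots used matplotlib 3.10.9, scipy 1.17.1, pandas 2.3.3 and Python 3.11.15.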

Additional observations from a re-analysis of the deposited data

How the results depend on the processing

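With 3 libraries a group, 1 library decided several counts. With 1 library left out at a time, 2 to 1733 genes passed in limma, against 5 with all 6, and the number of mitochondrial genes among them was 0 to 7. The highest values came without KO replicate 3 (13.7% of all genes tested), when mt-Nd3, mt-Tg, mt-Tr, mt-Tv, mt-Tm, mt-Tl1 and mt-Tl2 passed, and Ptpmt1 also passed (log2 fold change -1.32, within a range of -1.34 to -1.11 over the libraries left out). No mitochondrial gene passed without KO replicate 1 or without any single WT library, where 3, 2, 2 and 2 genes passed. With a pseudocount of 1, 3 genes passed and 0 mitochondrial ones, and likewise 3 and 0 with no filter on low values. With limma-voom on rebuilt reads 1 gene passed and 0 mitochondrial ones. Rescaling to the same total or to nuclear reads gave 2 mitochondrial genes each, mt-Tg and mt-Nd3. The cause of these moves was not tested. With the replicate block, 12 genes passed and 2 of them, mt-Tg and mt-Tr, were mitochondrial. The correlations of same-numbered libraries were weak, and not every library correlated best with its own number. Blocked, mt-Nd3 over the other 12 coding genes kept its difference of 4.11 (exact permutation within numbers, p = 0.25, the smallest possible).

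Directions of small fold changes turned under other scalings. Rescaled to the same total, the log2 fold change was -0.27 for mt-Tn, -0.017 for mt-Tc, -0.10 for mt-Co1, -0.20 for mt-Co2, -0.058 for mt-Atp6, -0.083 for mt-Te, -0.17 for mt-Cytb and -0.26 for mt-Tp, each above 0 as deposited. Scaled to nuclear reads, it was -0.14 for mt-Tn, -0.066 for mt-Co2, -0.033 for mt-Cytb and -0.12 for mt-Tp. For mt-Tn it was -0.010 with median-of-ratios size factors and -0.033 with limma-voom. These were 14 of 297 values over 33 genes. With libraries left out, 26 of 198 values turned, in 15 genes, whose log2 fold changes then spanned mt-Nd2 -0.064 to 0.87, mt-Tn -0.47 to 0.44, mt-Tc -0.29 to 0.69, mt-Ty -0.46 to 0.33, mt-Co1 -0.39 to 0.78, mt-Co2 -0.51 to 0.56, mt-Atp8 -0.26 to 1.05, mt-Atp6 -0.59 to 0.97, mt-Co3 -0.45 to 1.14, mt-Nd4 -0.62 to 0.56, mt-Nd5 -0.63 to 0.42, mt-Nd6 -0.68 to 0.32, mt-Te -0.29 to 0.77, mt-Cytb -0.50 to 0.73 and mt-Tp -0.51 to 0.57.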
